A study of Mus musculus with 5 samples.

Results

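Goblet cells secrete the mucus that lines the airway, and the 10 genes described here encode proteins that such cells secrete, carry or use to make mucus. The secreted members are Clca1, Fcgbp, Itln1, Bpifb1 and the trefoil peptides Tff1 and Tff2. Muc1 is a membrane mucin, Agr2 a folding protein, Gcnt1 a glycosyltransferase and Spdef a transcription factor. The members were chosen by name, with earlier results of these data known. Each probe set whose annotation gave exactly 1 gene symbol, that of a member, was taken. This gave 14 probe sets of the 12422 on the array, for 10 of 8251 named genes. Of the 14, 11 were bright enough to be tested, and they cover all 10 genes.

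Total RNA, labelled as murine lung, came from A-J mice that had received either a saline solution (2 arrays) or the cytokine interleukin-13 (IL13 in the labels, 3 arrays) into the trachea. Saline arrays are titled 6 and 48, and IL-13 arrays 6, 18 and 48, with no unit in the labels. Arrays are called by treatment and title number here (saline 6, IL-13 18). Every combination holds 1 array, and neither the number of animals behind an array nor their age is in the labels. The p-values therefore measure the spread between these arrays, which may be technical and which also differ in title number.

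In airway epithelium IL-13 acts through its receptor and the transcription factor STAT6, and it is well known for turning secretory cells of the mouse airway into goblet cells. Spdef drives that change of cell type. Goblet cells package gel-forming mucins into granules together with proteins such as Clca1 and Fcgbp. Agr2 assists mucin folding in the endoplasmic reticulum, and Gcnt1 branches the sugar chains that mucins carry.

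The deposited values are intensities on a linear scale, with medians from 324 to 358 and a trimmed mean between 796.1 and 797.2 on every array once control probe sets were left out. Between any pair of arrays, log2 values correlated at Pearson's r of 0.913 to 0.956 (across genes, which are not independent replicates). Several arrays stood apart. The summed intensity of 20 salivary gland genes was 174596 on saline 6 and 5016 to 7203 on the other 4 arrays, with 9 of 10 tested lower with IL-13 by sign. Of the defining lung genes, the club cell gene Scgb1a1 read 22024 to 31024 on all 5 arrays. The alveolar surfactant gene Sftpc read 17178 on IL-13 18 and 2615 on saline 6 but only 194.3 to 300.5 on the other 3 arrays. Sftpb, another surfactant gene, read 2114 on IL-13 18 and 67.6 to 231.8 on the rest. The surfactant gene Sftpd did not follow these. It read 121.1 to 217.1, highest on IL-13 6, and was too dim to be tested. The thyroid gene Tg (13170 to 25516) and the parathyroid gene Pth (8659 to 13790) were bright on all 5 arrays. The rest of the thyroid list was dimmer. Chga read 4105.5 to 7035.5, Dio1 365.4 to 1858, Pax8 607.8 to 1494 and Tshr 41.1 to 378.9. Each of these was lowest on saline 6, whereas Tg was lowest on saline 48. Of the other defining lung genes, Slc34a2 read 2730 on IL-13 18 and 112.9 to 251.8 on the rest. Over the 5 arrays, Ager read 1872 to 4928, Cdh5 1558.5 to 2854.5, Hopx 483.6 to 1606 and Car4 362.1 to 1492. The surfactant, Tg and Pth values put the label of lung in doubt, above all for saline 48, IL-13 6 and IL-13 48. Not every lung gene was low on those arrays, and which tissues were sampled was not tested. Values below 55.3 were set to that floor. Results that depend on 1 array are given with and without it. In these bulk samples more goblet cells, more RNA per goblet cell and a different mix of tissue cannot be told apart. The sums of thymocyte and squamous epithelium genes, given below, also differed between the groups.

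The promoter windows of 4 members whose brightest probe set read higher on every IL-13 array than on either saline array are shown with that of the transcription factor Spdef, to set side by side the sequences where their transcription starts. They are RefSeq windows of build GRCm38.p6, written 5′ to 3′ along the gene's strand. Capitals mark the 4 letters ATAA, the core of a TATA-like element, where they begin 40 to 20 bases before the annotated start on the gene's strand. In Gcnt1, capitals mark TTC and GAA separated by 4 bases, the spacing that STAT6 prefers.
Fcgbp (chr7:28070986-28071285, plus strand): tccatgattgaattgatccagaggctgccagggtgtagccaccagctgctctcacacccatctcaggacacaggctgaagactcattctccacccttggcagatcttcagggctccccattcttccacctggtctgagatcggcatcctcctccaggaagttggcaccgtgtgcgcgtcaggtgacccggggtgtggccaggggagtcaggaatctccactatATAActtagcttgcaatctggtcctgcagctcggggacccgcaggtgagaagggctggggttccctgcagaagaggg
Agr2 (chr12:35992675-35992974, plus strand): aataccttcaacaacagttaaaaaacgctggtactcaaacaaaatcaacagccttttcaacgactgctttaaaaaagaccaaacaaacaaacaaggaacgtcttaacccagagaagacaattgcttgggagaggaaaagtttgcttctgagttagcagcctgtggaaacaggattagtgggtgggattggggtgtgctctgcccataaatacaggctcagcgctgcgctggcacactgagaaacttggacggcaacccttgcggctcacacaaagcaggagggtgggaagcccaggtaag
Itln1 (chr1:171535245-171535544, minus strand): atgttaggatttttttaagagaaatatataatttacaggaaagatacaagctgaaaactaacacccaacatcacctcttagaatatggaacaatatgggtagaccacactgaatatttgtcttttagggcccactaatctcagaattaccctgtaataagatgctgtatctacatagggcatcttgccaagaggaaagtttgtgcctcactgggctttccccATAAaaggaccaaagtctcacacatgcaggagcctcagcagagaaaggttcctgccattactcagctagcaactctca
Spdef (chr17:27728902-27729201, minus strand): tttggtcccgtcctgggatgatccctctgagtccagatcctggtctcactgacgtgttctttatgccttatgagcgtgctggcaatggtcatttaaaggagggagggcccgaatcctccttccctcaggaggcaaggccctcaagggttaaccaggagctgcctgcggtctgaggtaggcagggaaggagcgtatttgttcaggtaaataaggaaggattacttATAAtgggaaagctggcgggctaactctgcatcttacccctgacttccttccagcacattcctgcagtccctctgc
Gcnt1 (chr19:17356618-17356917, minus strand): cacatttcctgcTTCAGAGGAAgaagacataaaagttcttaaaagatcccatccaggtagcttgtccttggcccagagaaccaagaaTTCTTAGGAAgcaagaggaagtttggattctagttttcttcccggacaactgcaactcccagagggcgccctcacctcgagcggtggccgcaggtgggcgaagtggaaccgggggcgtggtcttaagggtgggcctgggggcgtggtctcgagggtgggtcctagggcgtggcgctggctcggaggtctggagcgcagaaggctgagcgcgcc

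RefSeq gave 10 windows for 7 of the 10 genes, Gcnt1 with 3 and Bpifb1 with 2. Clca1, Tff1 and Tff2 had no entry. ATAA at that distance was present in 5 of the 10 windows (Fcgbp, Itln1, Muc1, Spdef and 1 window of Bpifb1), and in 8.08% of all 32851 windows. This element was picked after the member windows had been read. TTC and GAA separated by 4 bases, searched on both strands, were present in 1 member window, that of Gcnt1 shown above, which holds TTCAGAGGAA and TTCTTAGGAA. They begin 238 and 163 bases before the start. Of all windows, 6.95% hold this motif. The same letters separated by 3 bases, a spacing of other STAT factors, were in 1 window of Bpifb1 (8.3% of all windows), a window without the wider spacing. The FOXA letters TGTTTAC (3.65% of all windows) and CCGGATG, a core of the ETS-type site of SPDEF (2.18%), were in none of the 10 on either strand. A match is a run of letters and not a site shown to be bound.

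Clca1, the secreted goblet cell protein also called gob-5 in mouse, showed the widest difference of the members. Its bright probe set 162287_r_at read 3118 on saline 6 and 284.7 on saline 48, and 21502, 29076 and 22007 on IL-13 6, 18 and 48. All 3 IL-13 arrays lay far above both saline arrays and within 1.35-fold of each other, whereas the saline arrays lay 11.0-fold apart. The log2 difference was 4.67 (SE 0.90, 95% interval 2.50 to 6.83), the largest increase among the 7811 tested probe sets. It did not pass the limma test with Benjamini-Hochberg adjustment over all tested probe sets (adjusted p = 0.26).

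The call for Clca1 depended on the saline arrays. Without saline 6 the log2 difference was 6.40 and the limma adjusted p was 0.00724, where 0.0128% of all tested probe sets passed as higher. Without saline 48 it was 2.94, with an adjusted p of 0.0377, where 0.0384% passed. Clca1 passed in either case, with the remaining saline array assumed to vary like the IL-13 arrays. Without any 1 of the IL-13 arrays it was 4.53 to 4.75 and did not pass (adjusted p = 0.459 to 0.494). The matched pairs gave 6.89-fold at 6 and 77.3-fold at 48. With the other saline array as control the order turned, to log2 differences of 6.24 at 6 and 2.82 at 48.

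The other probe set of Clca1, 100623_at, was too dim to be tested. It read 45.7 on saline 6 and 57.0 on saline 48, and 112.4, 156.8 and 24.6 on IL-13 6, 18 and 48. It was highest on IL-13 18 and 6 and lowest on IL-13 48, so the groups overlapped and it did not show the pattern of the bright probe set. The ending _r_at marks probes chosen under relaxed rules. No probe set read higher on IL-13 18 than the 29076 of Clca1, and whether the scanner was saturated was not tested.

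**Figure D1:**
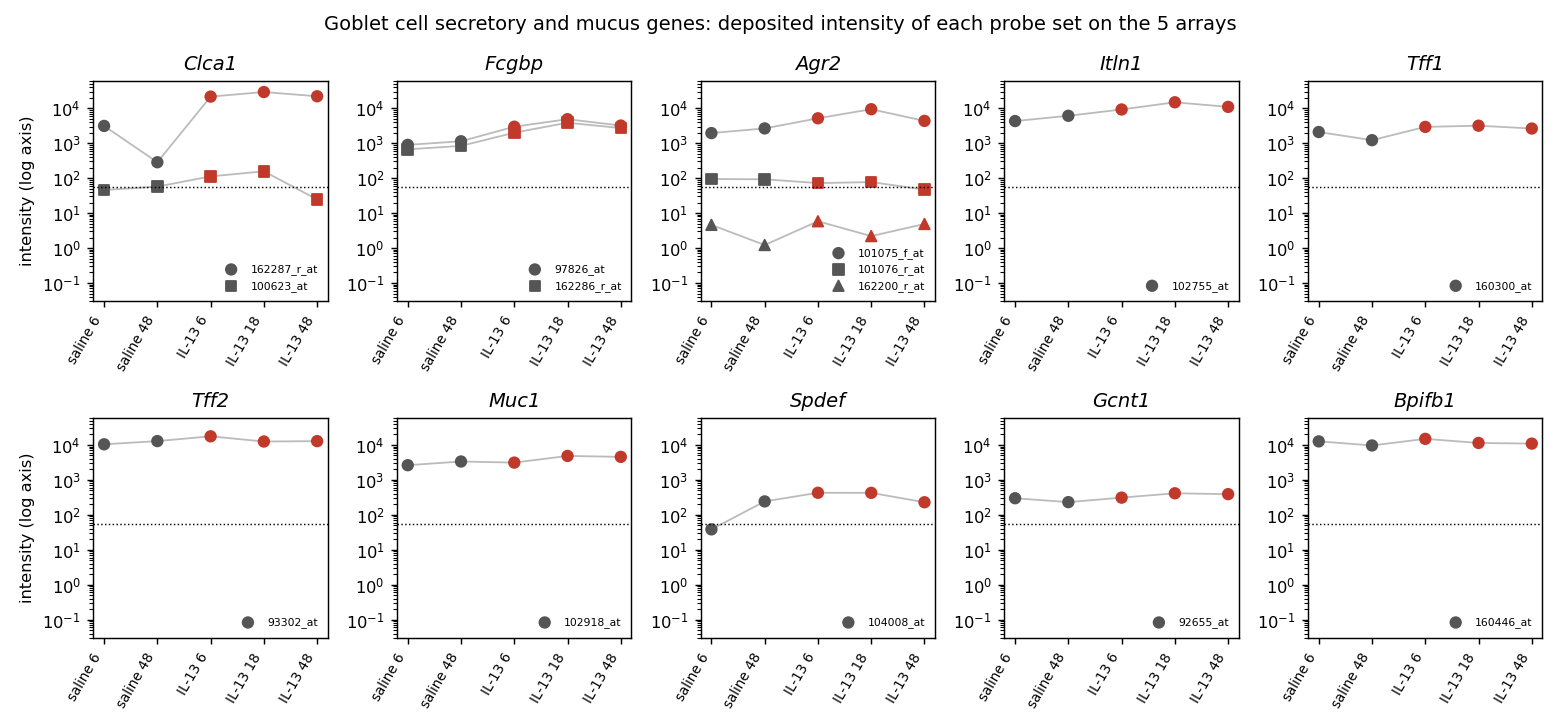
Deposited intensity (log axis) of each of the 14 member probe sets on the 5 arrays, 1 panel per gene, with saline in grey and IL-13 in red. Symbols stand for probe sets, lines join the values of 1 probe set and the dotted line is the floor of 55.3. The 3 IL-13 values of Clca1 (162287_r_at) sit between 21502 and 29076, all above the saline values of 3118 and 284.7.

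Fcgbp, a large mucus protein that binds the constant part of immunoglobulin G, had a pair of bright probe sets that gave nearly the same profile. Probe set 97826_at read 895 and 1135 on saline 6 and 48, and 2961, 4858 and 3193 on IL-13 6, 18 and 48. Probe set 162286_r_at read 667.6 and 835.8 after saline, then 1996, 3852 and 2704 with IL-13 in the same order. On both, every IL-13 array was higher than either saline array, and IL-13 18 was the highest. The log2 differences were 1.83 (SE 0.26) and 1.88 (SE 0.30), or 3.55-fold and 3.68-fold, and neither passed (limma adjusted p = 0.183 and 0.185). Both held in each matched pair, at 3.31-fold and 2.99-fold at 6 and 2.81-fold and 3.24-fold at 48. Leaving out 1 array gave 1.61 to 2.0 for the former and 1.64 to 2.11 for the latter. Unlike for Clca1, the saline arrays lay close together, 1.27-fold and 1.25-fold apart.

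Itln1, intelectin, a secreted lectin that binds sugars of microbes, read 4295 and 6078 on saline 6 and 48. On IL-13 6, 18 and 48 it read 9208, 14791 and 10928. The groups did not overlap, and IL-13 18 was again highest. IL-13 minus saline was, on the log2 scale, 1.16 (SE 0.27, 95% interval 0.52 to 1.80) and did not pass (limma adjusted p = 0.311). It was 2.14-fold at 6 and 1.80-fold at 48, and 0.91 to 1.41 on the log2 scale when 1 array was left out.

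Agr2, a protein disulphide isomerase of the endoplasmic reticulum of mucus cells, was read well by 1 of its 3 probe sets. Probe set 101075_f_at, whose ending marks probes that related transcripts may share, read 1944 and 2646 on saline 6 and 48. On IL-13 6, 18 and 48 it read 5156, 9370 and 4339. All IL-13 arrays were above both saline arrays, with IL-13 18 2.16-fold above IL-13 48. Its log2 difference came to 1.39 (SE 0.35) and did not pass (limma adjusted p = 0.361). It was 2.65-fold at 6 and 1.64-fold at 48.

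The other probe sets of Agr2 did not show this. Probe set 101076_r_at, made from the same transcript record, read 94.3 and 92.7 after saline, then 72.1, 77.1 and 47.0 with IL-13, so each IL-13 value was below either saline value. Probe set 162200_r_at read at most 5.83 on any array, below the floor throughout. Neither was bright enough to be tested.

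The trefoil peptides are small secreted proteins that cross-link with mucins and aid repair of epithelium. Tff1 read 2088 and 1220 on saline 6 and 48 and 2924, 3165 and 2628 on IL-13 6, 18 and 48. Its groups did not overlap, and the IL-13 arrays lay within 1.2-fold of each other. The log2 difference was 0.86 (SE 0.26) and did not pass (limma adjusted p = 0.444). It ranged from 0.47 without saline 48 to 1.25 without saline 6, and was 1.40-fold at 6 and 2.15-fold at 48.

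Tff2 read 10429 and 12877 on saline 6 and 48 and 17619, 12524 and 12824 on IL-13 6, 18 and 48. Only IL-13 6 stood above the other arrays, and the groups overlapped. On the log2 scale IL-13 exceeded saline by 0.29 (SE 0.22, 95% interval -0.25 to 0.82, limma adjusted p = 0.744). It was 0.13 without IL-13 6, 0.14 without saline 6 and 0.44 without saline 48. The pair at 6 gave 1.69-fold and the pair at 48 gave 0.996-fold.

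Bpifb1, a secreted protein of the family of bactericidal and permeability-increasing proteins, had the narrowest difference. It read 12642 and 9652 on saline 6 and 48 and 14909, 11400 and 10912 on IL-13 6, 18 and 48. The groups overlapped. Its log2 difference came to 0.15 (SE 0.22, 95% interval -0.38 to 0.69, limma adjusted p = 0.868), and it changed sign without saline 48 (-0.04). It was 0.01 without IL-13 6, 0.24 without IL-13 48 and 0.35 without saline 6.

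Muc1, which spans the membrane of many epithelial cells, read 2631 and 3357 on saline 6 and 48. On IL-13 6, 18 and 48 it read 3122, 4845 and 4560. IL-13 18 and 48 were above both saline arrays, while IL-13 6 lay between them. IL-13 minus saline was, on the log2 scale, 0.46 (SE 0.25, 95% interval -0.14 to 1.07, limma adjusted p = 0.633), and 0.29 without saline 6. With the other saline array as control its pair at 6 turned, from 0.25 to -0.10 on the log2 scale.

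Gcnt1, the enzyme that starts the branched core of mucin sugar chains, read 298.7 and 230.9 on saline 6 and 48. On IL-13 6, 18 and 48 it read 310.7, 413.6 and 390.7. The groups did not overlap, although IL-13 6 lay only 1.04-fold above saline 6. The log2 difference was 0.49 (SE 0.21, 95% interval -0.02 to 1.00, limma adjusted p = 0.56), and 0.30 without saline 48.

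Spdef, the transcription factor, read 38.4 on saline 6, below the floor, and 242.3 on saline 48. On IL-13 6, 18 and 48 it read 427.3, 425.6 and 229.0. IL-13 6 and 18 were alike and above both saline arrays, while IL-13 48 lay just under saline 48. The difference in log2 was 1.58 (SE 0.62, 95% interval 0.09 to 3.08, limma adjusted p = 0.531). It rested on saline 6: it was 0.52 without that array and 2.65 without saline 48. Since saline 6 was set to the floor, the value also moved with the floor, to 0.62 with it at percentile 40 and 1.84 at percentile 10. At 6 Spdef was at least 7.73-fold higher with IL-13, and at 48 the ratio was 0.945. Saline 6 was also the array with the salivary gland signal and the lowest sum of 14 pan-epithelial genes (14756, against 20136 to 21605 on the others). The part of these in the Spdef value was not tested.

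**Figure D2:**
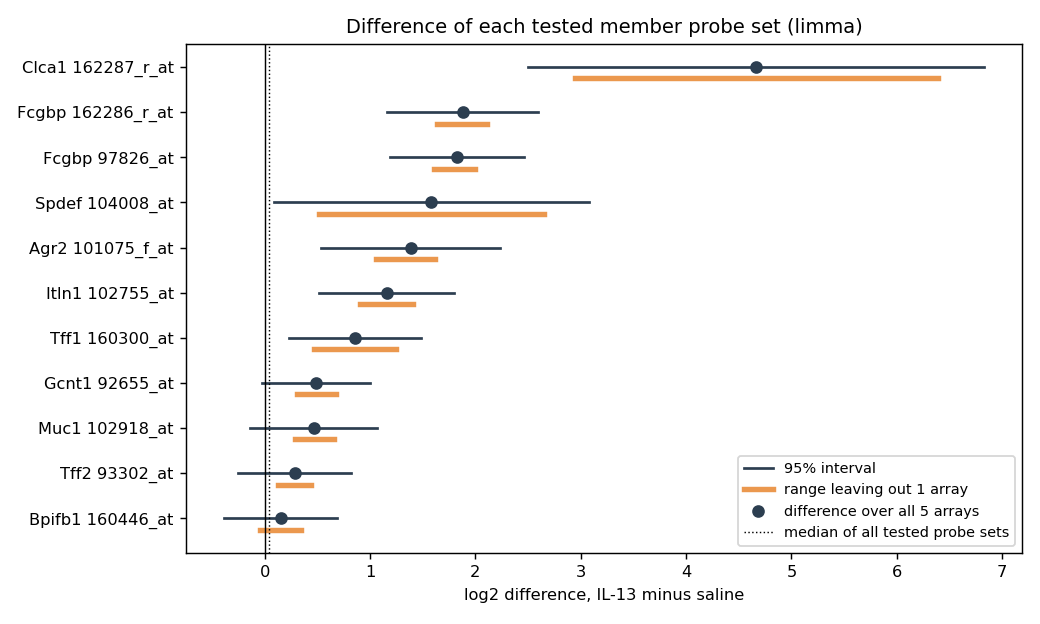
Log2 difference of IL-13 minus saline (horizontal axis) for the 11 tested member probe sets, with the limma estimate as a point, its 95% interval as a dark line and the range when 1 array was left out as an orange line. Clca1 stands at 4.67 and Bpifb1 at 0.15, and the dotted line marks the median of all tested probe sets at 0.04.

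Over the members, 0 of the 11 tested probe sets passed as higher by limma over all 5 arrays, where 0.0128% of all tested probe sets did and 0.0512% passed in either direction. At an unadjusted p under 0.05, 7 of the 11 were higher (Clca1, both of Fcgbp, Agr2, Itln1, Tff1 and Spdef), against 5.27% of all. Every IL-13 array exceeded every saline array on 7 of the 11 (Clca1, both of Fcgbp, Agr2, Itln1, Tff1 and Gcnt1), against 14.8% of all tested probe sets. All 11 had a positive difference, as had 55.3% of all, and their median of 1.16 compares with 0.04 for all tested probe sets. Since the members were chosen with earlier results of these data known, these shares describe them and are no independent test. The 3 probe sets that were not tested include 1 that overlapped, 1 lower on all IL-13 arrays and 1 below the floor. With arrays left out, a choice made after the data had been seen, the count without overlap became 8 without saline 6 (27.8% of all), 10 without saline 48 (37.6%), 8 without IL-13 6 (24.0%), 7 without IL-13 18 (19.6%) and 8 without IL-13 48 (20.1%). Without both saline 6 and IL-13 18 it was 8 (34.3%).

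By rank of the log2 difference among the 7811 tested probe sets, Clca1 came 1, the Fcgbp probe sets 9 and 11, Spdef 15, Agr2 33, Itln1 53 and Tff1 149. Gcnt1 (636), Muc1 (705), Tff2 (1577) and Bpifb1 (2691) followed. The ranks describe these 5 arrays only, and that of Spdef holds for the floor of 55.3.

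In the matched pairs, which have 1 array on each side and no test, 6 of the 11 probe sets were at least 2-fold higher with IL-13 at 6, against 4.06% of all. At 48 these were 4 of 11 (Clca1, both of Fcgbp and Tff1), against 1.63% of all. With the other saline array as control the counts exchanged, to 4 of 11 at 6 (Clca1, both of Fcgbp and Tff1; 2.45% of all) and 6 of 11 at 48 (Clca1, both of Fcgbp, Agr2, Itln1 and Spdef; 4.53% of all). Clca1 and both probe sets of Fcgbp were at least 2-fold higher in both pairs, against 0.256% of all, and also with the other control (0.294% of all). By sign alone, 9 of the 11 were higher in both pairs, against 30.8% of all, the exceptions being Tff2 and Spdef. With the other control 9 were higher in both (27.3% of all), and the exceptions were Muc1 at 6 (-0.10) and Bpifb1 at 48 (0.18 turned to -0.21, log2). Under quantile normalization the pair of Gcnt1 at 6 turned from 0.06 to -0.02.

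**Figure D3:**
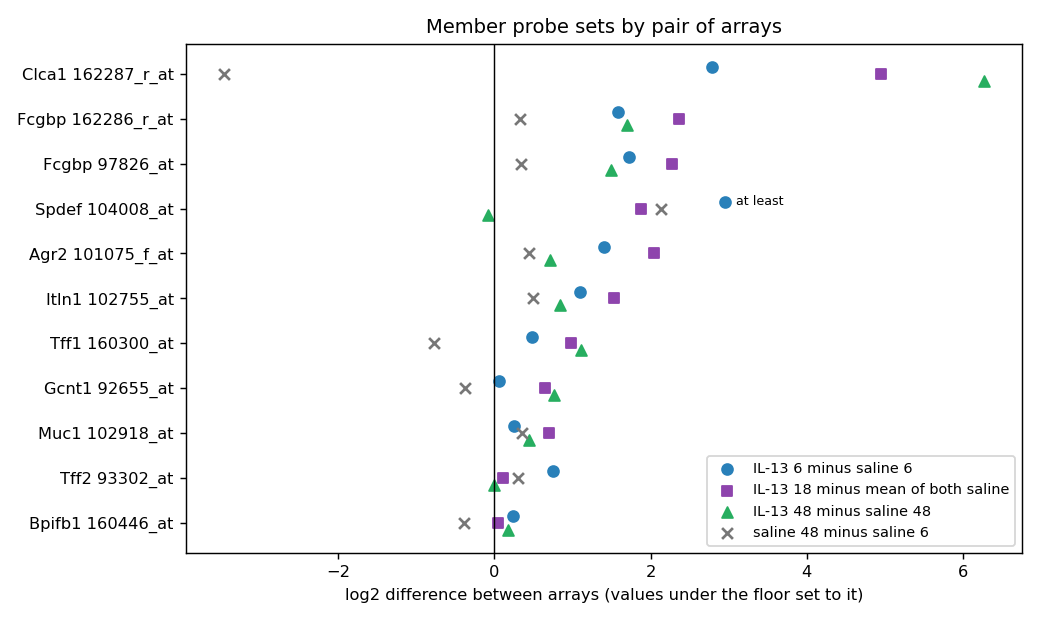
Log2 difference between arrays (horizontal axis) for the 11 tested member probe sets, by pair: circles at 6, triangles at 48, squares for IL-13 18 minus the saline mean and crosses for saline 48 against saline 6. The cross of Clca1 lies at -3.46 and that of Spdef at 2.13, the widest gaps between the saline arrays among the members, and the circle of Spdef is a lower bound.

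Across the IL-13 arrays the members fell into a larger and a smaller set by the array with the highest value, a grouping made after seeing the values. IL-13 18 was the highest of the 5 arrays for 8 of the 11 probe sets (Clca1, both of Fcgbp, Agr2, Itln1, Tff1, Muc1 and Gcnt1), against 20.1% of all tested probe sets. Its excess over IL-13 6 was 1.35-fold for Clca1, 1.64-fold and 1.93-fold for Fcgbp, 1.82-fold for Agr2 and 1.61-fold for Itln1. For Tff1 it was only 1.08-fold, and for Muc1 and Gcnt1 IL-13 18 lay only 1.06-fold above IL-13 48. The other 3 (Tff2, Spdef and Bpifb1) were highest on IL-13 6, against 19.6% of all. Spdef, however, read nearly the same on IL-13 6 (427.3) and IL-13 18 (425.6). Both Tff2 and Bpifb1 are bright, and some other bright genes also peaked on IL-13 6. Scgb1a1 read 31024 on that array and 22024 to 29143 elsewhere, and Ltf 20913 and 14438 to 16736. Not all did so, since Aldh1a1 was lowest on it (16039, against 17577 to 20230). The top value of any probe set was 32284 for IL-13 6 but 23414 for IL-13 48. The part of array differences at the bright end in the Tff2 and Bpifb1 values was not tested. IL-13 18 was also the array with the most Sftpc and Sftpb transcript, though not the most Sftpd. The part of this in the members' values was not tested. With 1 array per number, these differences have no replicate.

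The genes with the profile nearest to that of a member were found by the root mean square difference of centred log2 values over the 5 arrays. For Clca1 the nearest gene was Chil3, a chitinase-like protein of macrophages, at 0.59. The next was Ddr2, a collagen receptor kinase, at 1.72, followed by Ckm (1.73), H2bc22 (1.73) and Tm7sf2 (1.76). Chil3 read 387.9 and 92.0 after saline, then 2566, 7595 and 3182 with IL-13, so it shares with Clca1 the low value on saline 48. No other member came nearer to Clca1 than 1.82.

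For Fcgbp (97826_at) the nearest profiles outside the members were those of the hormone gene Sct (0.29), Ddr2 (0.32), the thrombin receptor gene F2r (0.33), the neuropeptide gene Nmu (0.33) and the guanylate cyclase gene Gucy1b1 (0.38). Agr2 at 0.27 and Itln1 at 0.34 were about as near. For Agr2 they were Hopx of alveolar cells (0.18), Gucy1b1 (0.21), the matrix gene Matn2 (0.24), F2r (0.24) and the hyaluronan synthase gene Has3 (0.25), with Itln1 at 0.25. Fcgbp, Agr2 and Itln1 thus had profiles of similar shape and size. Clca1 exceeded them in size and also differed in shape. Its saline 48 minus saline 6 was -3.455 in log2, against 0.34 for Fcgbp, 0.44 for Agr2 and 0.50 for Itln1.

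Other genes of mucus were less well covered. Of 19 mucin genes other than Muc1 that were listed, 8 were on the array under a single symbol and 3 were bright enough to be tested, and none passed in either direction. Muc5ac, the main gel-forming mucin of airway goblet cells, read 5.99 to 29.8 and so never reached the floor, which leaves no fold to give. Muc3 and both probe sets of Mucl2 were also below the floor throughout. Prol1 and Mucl1 were below it on 3 and 4 arrays. The tested Muc13 (-0.01), Emcn (-0.10) and Cd164 (-0.01) had differences near 0 with overlapping groups. Another tested probe set of Emcn, 93885_g_at, stood at 0.33.

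Of 26 family relatives and other secreted airway proteins listed, 11 were on the array and 8 were tested. All 8 had a positive difference, none passed, and their median was 0.10 against 0.03 for all 5983 tested genes. Pigr, the receptor that carries immunoglobulin A into mucus, read 8739 and 10302 after saline, then 16412, 14730 and 13416 with IL-13. Its groups did not overlap (log2 difference 0.64, SE 0.18, limma adjusted p = 0.413). Dmbt1, a secreted scavenger receptor protein of mucosa, differed by 0.58 and Wfdc2 by 0.38, both with overlapping groups. Clca3a1, the relative of Clca1 on this array, read 280.8 and 241.1 after saline, then 364.8, 260.2 and 203.2 with IL-13 and differed by 0.04. Ltf (0.07), Lbp (0.06), Reg3g (0.09) and Lcn2 (0.11) also overlapped. The trefoil relative Tff3 read 51.4 to 75.4, Zg16 21.4 to 124.3 and Retnlb at most 47.8, and these were not tested.

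Enzymes of mucin-type glycosylation other than Gcnt1 had 19 tested genes, 15 higher and 4 lower by the sign of the difference, with a median of 0.19, and none passed. On 6 of them the groups did not overlap, with IL-13 higher, against 843 of all 5983 tested genes (14.1%). St3gal4, a sialyltransferase, read 427.3 and 530.6 after saline, then 1526, 1291 and 633.3 with IL-13 (log2 difference 1.18, SE 0.38, limma adjusted p = 0.479). Galnt4, which attaches the first sugar, differed by 0.90 and B3gnt2, which extends chains, by 0.57. Neither overlapped, though the other tested probe set of B3gnt2 (0.31) did.

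Genes of granule docking and exocytosis had 18 tested members, 10 higher and 8 lower, a median of 0.03 and no call. Marcksl1 differed by -0.49, Scin, an actin-severing protein, by 0.38 and the vesicle gene Vamp2 by -0.35. Transcription factors and Notch genes of secretory cells had 19 tested, 13 higher and 6 lower, a median of 0.09 and no call. The largest differences were those of Ets1 (-1.02), the Notch ligand Dll1 (0.71) and Notch3 (-0.56), each with no overlap. On 3 of the 19 all IL-13 arrays read above both saline arrays (14.1% of all tested genes), and on 2 below (11.3%). Notch1 stood at 0.01, but its other tested probe set, 162204_r_at, differed by 1.115 without overlap. Listed responders to IL-4 or IL-13 and their receptors had 18 tested, 12 higher and 6 lower, a median of 0.36 and no call. The largest were Chil3 (4.39), Chia1 (-1.69, bright only on saline 6 and, less so, IL-13 18) and the chemokine Ccl11 (1.40). The median of that list was 0.78 in the pair at 6 and -0.21 in the pair at 48, where that of the 10 member genes was 0.93 and 0.74. Chia1 is also on the salivary gland list.

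Markers of other cell types are given beside the members. Club cell genes summed to 79118 to 84193 on the 5 arrays, 11 genes in all, with a median difference of 0.02 over 9 tested. Ciliated cell genes summed to 14095 and 15787 after saline, then 16300 to 18431 with IL-13, with 8 of 9 tested higher and a median of 0.21. Pan-epithelial genes had 11 of 12 tested higher with a median of 0.30, which was 0.66 in the pair at 6 and -0.13 in the pair at 48. On 5 of the 12 all IL-13 arrays read above both saline arrays, against 14.1% of all tested genes. The members' own sum was 38378 and 37723 after saline, then 72012 to 90868 with IL-13. Without Clca1 it was 35260 and 37438 on saline 6 and 48, and 56637, 61792 and 50005 on IL-13 6, 18 and 48.

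Squamous epithelium genes had higher sums on the same arrays as the members. They summed to 52668 and 57170 after saline, then 70390 to 101921 with IL-13. Of 12 tested, 11 were higher by sign, with a median of 0.72, and 9 had all IL-13 arrays above both saline arrays, against 14.1% of all tested genes. The cornified envelope gene Sprr2b differed by 2.09 and the keratin gene Krt6a by 1.21. Their sum was highest on IL-13 6, whereas 8 of the 11 member probe sets were highest on IL-13 18. Their part in the members' values was not tested. Macrophage genes summed to 22980 and 25846 after saline, then 27486 to 31504 with IL-13 (7 of 11 tested higher, median 0.07). This list holds Chil3, which is also on the list of IL-13 responders. Without Chil3 the sums were 22592 and 25754 on the saline arrays and 23909 to 25021 on the IL-13 arrays, so the groups overlapped. Thymocyte and T cell genes went the other way, with 17863 and 23792 after saline, then 5434 to 12067 with IL-13 (13 of 14 tested lower, median -1.47).

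Stomach and gut genes, listed because Tff1, Tff2 and Agr2 are also made there, had 13 on the array, 4 of them below the floor on every array, and 3 tested. The tested genes were Reg1 (0.85), the endocrine gene Chga (0.40) and the proton pump gene Atp4a (0.16), and none passed. The whole list summed to 5291 and 6090 after saline, then 6176 to 8332 with IL-13. Most of this was Chga, which is also on the thyroid list and whose groups overlapped. Without Chga the sums were 1186 and 974 on saline 6 and 48, and 1279, 1473 and 1297 on IL-13 6, 18 and 48. Mesothelial genes, listed because Itln1 is also made by mesothelium in human, summed to 9185 to 12443. Of 4 tested, 3 were higher, with a median of 0.105. Msln stood at -0.05, Upk3b at 0.02, Cpe at 0.19 and Krt19, also on the pan-epithelial list, at 0.36. Only Krt19 among them had all IL-13 arrays above both saline arrays. The other tested probe set of Cpe (0.38) did so too, whereas that of Krt19 (0.405) overlapped. Heart muscle genes summed to 37847 to 57305 and thyroid genes to 35772 to 43612, with saline 6 highest for the former. Some heart genes were bright on both saline 6 and IL-13 18. Myl7 read 7548 and 3323 there, against 129.9 to 224.8 on the other arrays, and Myh6 3986 and 1391, against 100.3 to 208.1. Others, such as Myl3 (8684 to 14453), did not show this. The part of heart tissue in the members' values was not tested.

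**Figure D4:**
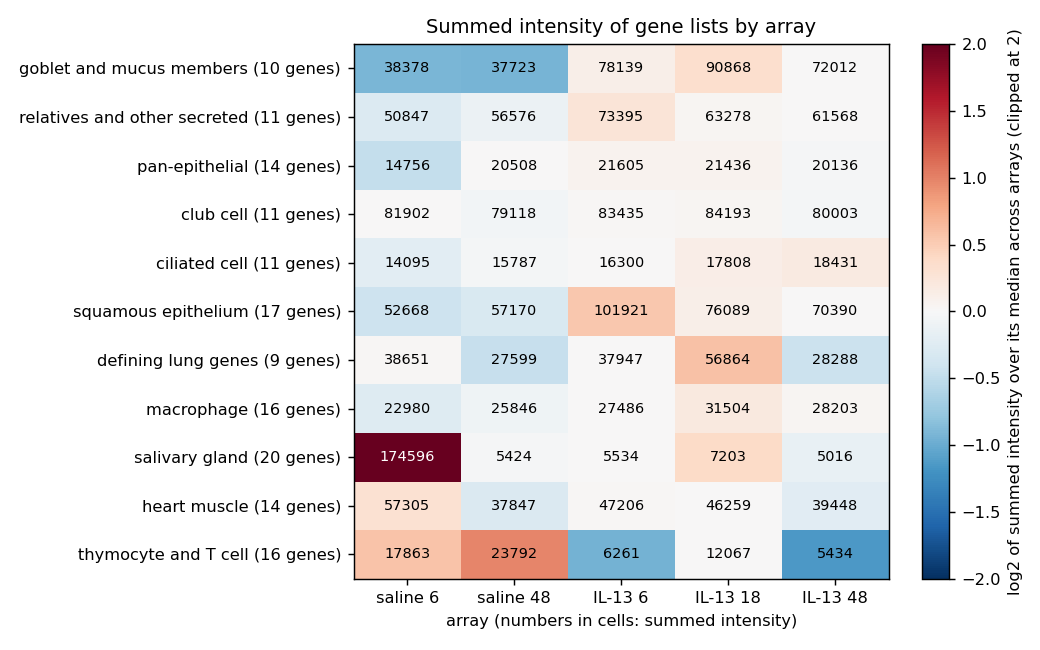
Summed intensity of gene lists on each array (numbers in cells), with colour for the log2 ratio to the list's median over the 5 arrays. The members sum to 38378 and 37723 on the saline arrays and to 72012 or more on the IL-13 arrays, and the salivary gland list stands out on saline 6 at 174596.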

How the data were processed

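RNA of 5 samples, 2 of saline and 3 of IL-13, was measured on Affymetrix mouse arrays. The authors deposited 1 table of probe set intensity values on a linear scale. Not given in the sources used here are the scaling target, the scanner software and any background correction. Of 12488 probe sets, 66 controls were left out. Of the 12422 left, 10833 had exactly 1 gene symbol, 396 several and 1193 none, and 10817 symbols were updated by gene number.

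Each array was brought to the same 2% trimmed mean. A floor at the 20th percentile of all values (55.3) preceded log2. The test took the 7811 probe sets (5983 genes) that exceeded the 40th percentile (210.2) on 2 or more arrays. IL-13 was compared with saline in limma 3.58.1 (lmFit, eBayes; R 4.3.3) by a two-sided test without covariates, Benjamini-Hochberg adjustment and a threshold of 0.05. The fit had 3 residual and 3.46 prior degrees of freedom, and SE is the moderated standard error. The fit was tested on simulated data. Printed intensities are as deposited, and folds come from scaled values. A fold whose lower array lies below the floor is written "at least". In lists a gene stands by its tested probe set with the highest mean.

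The members, gene lists and tests were chosen with earlier results of these data known. The rule for named genes was every member probe set, all tested mucins and relatives, the 3 largest differences of each other list, and the 5 nearest profiles of Clca1, Fcgbp and Agr2. Context lists are given by sums and counts. Alternatives were other scalings, floors and filters, limma's trend and robust options, a block for the title number, each array left out, and the other saline array as control. List sums without Clca1, Chil3 or Chga, and pair counts with the other control, were chosen after seeing the data. The number of arrays limits the precision. Promoter windows are from RefSeq, build GRCm38.p6. The files name no genome build. Figures were drawn with matplotlib 3.10.9.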

Additional observations from a re-analysis of the deposited data

Results flagged for a closer look

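For 2 members the matched pairs differed in sign, with the pair at 48 close to 0, which set them apart for a closer look. Tff2 differed by 0.755 on the log2 scale at 6 and by -0.006 at 48. Spdef differed by 2.951 at 6, a lower bound because saline 6 lay below the floor, and by -0.082 at 48. No test compared the pairs, since each side is 1 array. With the other saline array as control, the differences were 0.45 and 0.30 for Tff2 and 0.82 and 2.05 for Spdef, all positive. The saline group of 2 arrays is too small to look for an array far from the others by Dixon's criterion. The IL-13 group of 3 arrays was not examined by it.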

How the results depend on the processing

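Of 141 log2 differences of tested member probe sets under the alternatives, 138 kept their direction and their side of the threshold. The other 3 were Clca1 passing without saline 6 and without saline 48, and Bpifb1, which reversed to -0.043 without saline 48 (range 0.348 to -0.043 over the arrays left out). The number of member probe sets that passed was 0 in all alternatives other than those leaving out an array, with 6 or 7 at an unadjusted p under 0.05 by limma, and 0 to 1 with an array left out. The number with a positive difference ranged from 10 to 11 with an array left out. Member counts are out of 11 tested probe sets, or 9 with the filter at the 60th percentile. That filter had 6 of the 9 at an unadjusted p under 0.05 by limma. The number of all probe sets that passed, 4, fell to 0 with the floor moved to percentile 10 or 40, without a filter, with trend and robust settings and with the block, and to 1 with a filter at the 60th percentile. At an unadjusted p under 0.05 by limma, in either direction, these settings had 720, 706, 1086, 706, 578 and 481 probe sets. These were out of 7811, or 12422 without a filter and 5274 with the filter at the 60th percentile. It ranged from 0 to 13 with 1 array left out (13 without saline 48, 1 without saline 6). Title number as a replicate block over 4 arrays gave 4.53 for Clca1 and 1.61 and 1.64 for Fcgbp, and 0 calls. The numbers are not stated to mark shared animals or batches, and the correlation of the differences between 6 and 48 across treatments was 0.132. Quantile normalization and the values as deposited moved each of the 22 pair differences by less than 1 SD of the saline arrays. The other saline array moves a pair by the saline difference itself. The cause of these changes was not tested. Intensity over background limits Spdef, the dim probe sets of Clca1 and Agr2, and Muc5ac.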

Other observations

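Reg3g, a secreted antimicrobial lectin of epithelium, had a pair of probe sets that disagreed. Probe set 96064_at read 12421 and 14026 after saline, then 14765, 14098 and 13266 with IL-13. Probe set 162187_f_at read 1577 and 2329 after saline, then 3407, 4133 and 4552 after IL-13, without overlap, a log2 difference of 1.06 (SE 0.24, limma adjusted p = 0.311). Lcn2, a secreted protein that binds bacterial iron carriers, read 890.3 on IL-13 18 and 111.9 on IL-13 48 by probe set 160564_at, and 377.1 on IL-13 6. By 161684_r_at it read 283.8 to 400.3 on the 5 arrays.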
